A study of Mus musculus with 24 samples.

Results

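Proneural basic helix-loop-helix (bHLH) genes were followed in P19 cells, a mouse embryonal carcinoma line, during treatment with retinoids. The group comprised 8 genes, Neurog1, Neurog2, Neurod1, Neurod4, Nhlh1, Nhlh2, Olig2 and Atoh1, of the 19938 genes with a value. They were taken by name from probe sets annotated to 1 gene symbol, and each of the 8 had 1 such probe set. RNA was hybridised to 24 Affymetrix Mouse Gene 1.0 ST arrays, and values are log2 intensities, so that a difference of 1 is a 2-fold difference in intensity.

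All cells were grown as a monolayer on gelatin-coated plates. The control was EtOH (ethanol), with 4 arrays and no time given. ATRA (all-trans retinoic acid) was given at 1 µM and BMS753, an agonist of retinoic acid receptor RARα, at 1 µM. BMS641, an RARβ agonist, and BMS961, an RARγ agonist, were given at 0.1 µM. Each of the 4 agents had 1 array at each of 2, 6, 24, 48 and 72 h. Nothing in the labels says whether arrays came from separate cultures, so p-values measure the spread between these arrays, which may be technical. Where arrays of several times serve as repeats, that spread also holds changes over time that differ between agents. Because dose differs between the 1 µM and the 0.1 µM agents, agent and dose cannot be told apart between them. The embryonal carcinoma state, not the identity of the line, was checked on Pou5f1, the gene of the pluripotency factor Oct4. Pou5f1 read 12.90 ± 0.06 (SD, n = 4) with EtOH and 5.45 on the ATRA array at 72 h.

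Proneural proteins turn dividing neural progenitors into neurons. They bind the E-box, a short DNA motif, as pairs with an E-protein, and they are held back by Id proteins, which occupy E-proteins without binding DNA, and by Hes and Hey repressors, which Notch signalling induces. Neurogenins act first and are known to switch on Neurod and Nhlh genes, which act in young neurons, together with the Notch ligand Dll1.

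The sequences upstream of the start sites of Neurog1, Neurod1, Neurod4 and Nhlh1 are shown because these were the members at least 2-fold above EtOH with ATRA at 72 h. They are the 250 bases before the RefSeq start site (build GRCm38.p6), 5′ to 3′ on the gene's strand, which is the minus strand for all 4, and capitals mark E-boxes (CANNTG). The windows are chr13:56252181-56252430 for Neurog1, chr2:79456637-79456886 for Neurod1, chr10:130280255-130280504 for the outer of the starts listed for Neurod4 and chr1:172057597-172057846 for Nhlh1.
Neurog1: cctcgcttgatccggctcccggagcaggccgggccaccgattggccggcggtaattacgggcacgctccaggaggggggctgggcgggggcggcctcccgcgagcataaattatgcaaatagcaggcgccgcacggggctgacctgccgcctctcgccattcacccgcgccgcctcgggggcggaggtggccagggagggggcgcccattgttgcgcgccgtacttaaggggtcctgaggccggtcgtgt
Neurod1: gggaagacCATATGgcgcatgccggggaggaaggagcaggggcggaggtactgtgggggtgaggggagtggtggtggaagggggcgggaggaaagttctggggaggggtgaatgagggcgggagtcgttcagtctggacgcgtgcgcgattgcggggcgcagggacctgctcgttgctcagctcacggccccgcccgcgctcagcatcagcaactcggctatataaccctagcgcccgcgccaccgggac
Neurod4: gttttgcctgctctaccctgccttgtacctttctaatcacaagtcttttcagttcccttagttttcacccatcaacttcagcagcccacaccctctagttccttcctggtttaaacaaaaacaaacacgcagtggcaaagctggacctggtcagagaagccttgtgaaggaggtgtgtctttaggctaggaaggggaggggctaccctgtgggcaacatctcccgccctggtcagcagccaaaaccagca
Nhlh1: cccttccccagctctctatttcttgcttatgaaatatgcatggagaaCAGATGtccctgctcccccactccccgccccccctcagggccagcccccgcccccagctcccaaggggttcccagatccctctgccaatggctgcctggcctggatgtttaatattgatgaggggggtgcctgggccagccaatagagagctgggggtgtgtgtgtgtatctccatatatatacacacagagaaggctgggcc

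Neurod1 had the E-box CATATG at -242 and Nhlh1 the E-box CAGATG at -203, counted from the start site. No CANNTG lay in the Neurog1 or the Neurod4 window. Of the other members, only Nhlh2 held the motif, as CAACTG at -209 and CAGATG at -127. Among 32851 upstream windows of this length, 66.2% held CANNTG, 14.4% held CAGATG on either strand and 13% held CAGCTG, which no member window held. The retinoic acid response elements DR5 and DR2, searched on both strands as direct repeats of the receptor half-site, were in no member window and in 0.0883% and 0.174% of all windows. CCAAT, searched on both strands, was in the windows of Neurog1, Nhlh1, Nhlh2, Olig2 and Atoh1 and in 33.8% of all windows.

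Neurog1 and Neurog2 encode neurogenins, which commit progenitors to the neuronal fate. Neurog1 (probe set 10409575) read 5.82, 6.10, 5.89 and 5.89 on the EtOH arrays. With ATRA it read 5.91, 5.96, 6.09, 6.75 and 7.21 at 2, 6, 24, 48 and 72 h. With BMS753 it read 6.11, 5.97, 5.85, 6.22 and 7.36 at the same times. Its 4 highest values were the 48 and 72 h arrays of both agents, and the highest of the 24 was the BMS753 array at 72 h. On the 10 arrays of BMS641 and BMS961 it lay between 5.89 and 6.13. Neurog2 (probe set 10495964) read 5.91, 5.99, 6.03 and 5.95 with EtOH, 5.94, 5.93, 6.08, 6.41 and 6.26 with ATRA and 6.11, 6.08, 6.03, 6.14 and 6.23 with BMS753. Its whole range over the 24 arrays was 0.49. Its highest value was ATRA at 48 h, on 1 array, and the difference from ATRA at 72 h was not tested.

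Neurod1 and Neurod4 act after the neurogenins in differentiating neurons. Neurod1 (probe set 10484276) read 4.39, 4.33, 4.32 and 4.29 on the EtOH arrays. With ATRA it read 4.25, 4.37, 4.39, 5.55 and 7.59 at 2, 6, 24, 48 and 72 h. With BMS753 it read 4.32, 4.48, 4.45, 4.21 and 4.89. The ATRA arrays at 48 and 72 h were the highest of the 24, and with BMS753 only the 72 h array stood clear of the earlier ones. Neurod4 (probe set 10373680) read 4.27, 4.20, 4.23 and 4.26 with EtOH. It read 4.22, 4.20, 4.27, 4.37 and 5.34 with ATRA and 4.29, 4.30, 4.22, 4.23 and 4.47 with BMS753. Its one high value was ATRA at 72 h. On the 10 arrays of the 0.1 µM agents Neurod1 lay between 4.25 and 4.46 and Neurod4 between 4.15 and 4.39.

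Nhlh1 and Nhlh2, bHLH genes of newly formed neurons, were also highest with ATRA at 72 h. Nhlh1 (probe set 10360202) read 4.65, 4.82, 4.74 and 4.77 with EtOH. It read 4.77, 4.79, 4.77, 5.44 and 7.48 with ATRA and 4.89, 4.74, 4.62, 4.79 and 5.68 with BMS753. The BMS753 array at 72 h lay between the ATRA arrays at 48 and 72 h. Nhlh2 (probe set 10494795) read 4.60, 4.77, 4.84 and 4.85 with EtOH, 4.72, 4.87, 4.93, 5.28 and 5.73 with ATRA and 4.88, 5.03, 4.81, 4.96 and 5.33 with BMS753. Its 3 highest values were ATRA at 72 h, BMS753 at 72 h and ATRA at 48 h, and most arrays of all 4 agents lay above the highest EtOH array. On the 10 arrays of BMS641 and BMS961 Nhlh1 lay between 4.68 and 4.83 and Nhlh2 between 4.81 and 4.99.

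Olig2, which specifies motor neuron and oligodendrocyte progenitors, and Atoh1, which specifies dorsal interneurons and cerebellar granule cells, showed little movement. Olig2 (probe set 10436823) read 5.42, 5.68, 5.46 and 5.65 with EtOH and between 5.62 and 5.80 on all 20 treated arrays, a range over all 24 arrays of 0.37. Atoh1 (probe set 10538751) read 5.68, 5.79, 5.66 and 5.76 with EtOH. With ATRA it read 5.62, 5.61, 5.88, 5.70 and 6.18, and with BMS753 5.88, 5.77, 5.69, 5.78 and 5.73. The ATRA array at 72 h was its highest value.

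**Figure D1:**
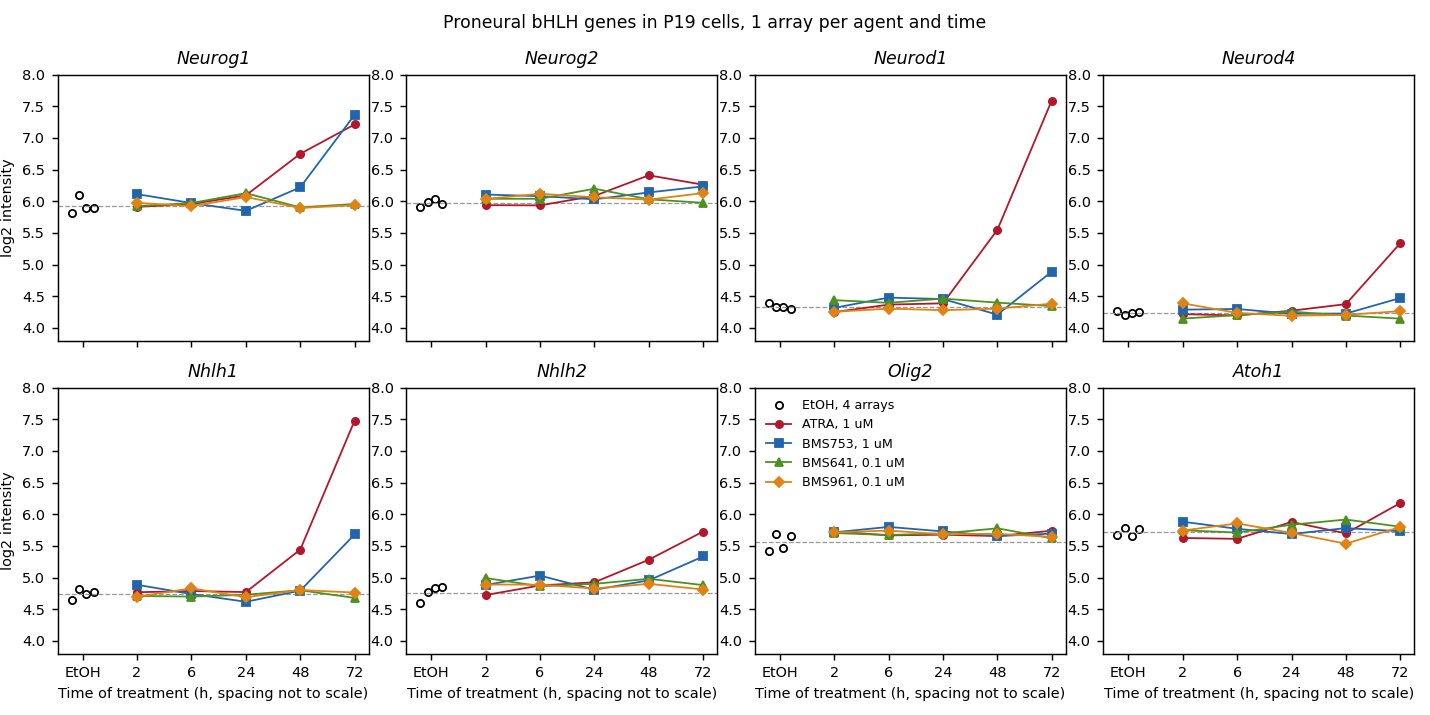
Log2 intensity (vertical axis) of the 8 proneural bHLH genes by time of treatment in hours (horizontal axis, spacing not to scale), with 1 point for each array, open circles for the 4 EtOH arrays and a dashed line at their mean. Neurod1 reached 7.59 and Nhlh1 7.48 with ATRA at 72 h, Neurog1 reached 7.21 with ATRA and 7.36 with BMS753, and Olig2 stayed between 5.42 and 5.80.

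ATRA was first compared with EtOH over its 3 late arrays (24, 48 and 72 h), which served as its repeats in a limma fit of all 24 arrays. A gene was called when its p, adjusted over all 19938 genes by the Benjamini-Hochberg method, was under 0.05. Late with ATRA, 6 of the 8 proneural genes were called higher and 0 lower, where 36.9% of all genes were called and 17.9% were called higher. The median difference from EtOH was 0.48 over the 8 genes and 0.03 over all genes.

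Neurod1 rose most, by 1.51 ± 0.38 on the log2 scale (SE, adjusted p = 0.00600, 3 against 4 arrays). Nhlh1 rose by 1.15 ± 0.33 (adjusted p = 0.0119) and Neurog1 by 0.76 ± 0.22 (adjusted p = 0.0144). Smaller rises were those of Nhlh2 at 0.55 ± 0.12 (adjusted p = 0.00199), Neurod4 at 0.42 ± 0.14 (adjusted p = 0.0275) and Neurog2 at 0.28 ± 0.07 (adjusted p = 0.00767). Atoh1 differed by 0.20 with a 95% interval of 0.02 to 0.37 (adjusted p = 0.0739), and Olig2 by 0.13 ± 0.06 (adjusted p = 0.112).

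The late ATRA differences of these 6 genes were all smaller without the 72 h arrays, for Neurog2 by less than the SE. Without the 72 h arrays of all agents Neurod1 differed by 0.63 and Nhlh1 by 0.36, Neurog1 by 0.50 and Nhlh2 by 0.34, all still called, and Neurod4 by 0.08 (adjusted p = 0.211). Without the 48 h arrays the adjusted p was 0.0652 for Neurog1 and 0.0736 for Neurog2, and Atoh1 at 0.31 was called (adjusted p = 0.00879). Under quantile normalization the adjusted p of Neurog2 was 0.0564. Neurod4 lost its call without EtOH replicate 2 or 3, without the 2 h arrays and without the 6 h arrays. Olig2 was called at 0.18 without EtOH replicate 2 (adjusted p = 0.0420). In a fit of the late ATRA arrays and the EtOH arrays alone, with no allowance for time, 0 of the 8 genes were called. Adjusted p was then 0.0721 to 0.257 for the 6, and 2269 of all genes were called in place of 7362.

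BMS753, late, gave 0 of 8 proneural genes called by limma, where 13.5% of all genes were called and 6.52% called higher. An unadjusted limma p under 0.05 was held by 4 of the 8, and by 5245 of all 19938 genes. All 8 differences were above 0, with a median of 0.17. Neurog1 differed by 0.55 ± 0.22 with an interval of 0.08 to 1.03 (adjusted p = 0.122), Nhlh2 by 0.27 ± 0.12 (adjusted p = 0.154) and Nhlh1 by 0.29 ± 0.33 (adjusted p = 0.655). Neurod1 differed by 0.18 with an interval of -0.63 to 0.99. Without the 24 h arrays Neurog1 at 0.87, Neurog2 at 0.22 and Nhlh2 at 0.38 were called (adjusted p = 0.00153, 0.0241 and 0.0217).

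At the 0.1 µM doses the proneural genes stayed near EtOH. Late with BMS641, 0 of 8 were called (0% of all genes), with differences of -0.04 to 0.16 and 1 member, Olig2, at an unadjusted p under 0.05. Late with BMS961, 0 of 8 were called (0.00502% of all genes, which is 1 gene), with differences of -0.04 to 0.12 and 0 members at an unadjusted p under 0.05. BMS961 and BMS641, the agents that share a dose of 0.1 µM, differed late by -0.17 for Atoh1 to 0.02 for Neurod4, and 0 of 8 were called (0% of all genes), with 0 at an unadjusted p under 0.05. The intervals of that difference were -0.54 to 0.48 for Neurog1 and -0.95 to 0.79 for Neurod1. An unadjusted limma p under 0.05 was held late by 625 of all genes with BMS641, 769 with BMS961 and 358 between these agents.

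Over 2 and 6 h none of the proneural genes was called with any agent. The differences lay between -0.10 and 0.14 with ATRA (0.858% of all genes called) and between 0.05 and 0.20 with BMS753 (0.306%). They lay between -0.07 and 0.17 with BMS641 (0% of all genes) and between -0.06 and 0.17 with BMS961 (0%). At an unadjusted p under 0.05 stood 0 members with ATRA, 1 with BMS753, 0 with BMS641 and 1 with BMS961, and that member was Olig2 both times. In the same order, 1582, 2081, 468 and 582 of all genes stood there.

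The times were then taken singly, for ATRA and BMS753. Here each array stands alone, with its spread taken to be that among the 4 EtOH arrays, and a gene was called at an adjusted p under 0.05 and a difference of at least 2-fold. With ATRA 0 of 8 proneural genes were called at 2, 6 and 24 h, where 0.171%, 0.637% and 1.41% of all genes were called higher. At 48 h Neurod1 was called, at 2.32-fold EtOH, where 3.38% of all genes were called higher.

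At 72 h of ATRA 4 of 8 were called higher, where 5.33% of all genes were called higher and 4.26% lower. Neurod1 stood 9.53-fold above EtOH (3.25 on the log2 scale, interval 3.09 to 3.42, adjusted p = 1.79e-13). Nhlh1 stood 6.66-fold above EtOH (adjusted p = 5.15e-12), Neurog1 2.44-fold (adjusted p = 2.42e-07) and Neurod4 2.14-fold (adjusted p = 7.28e-09). Nhlh2 at 1.95-fold, Atoh1 at 1.37-fold and Neurog2 at 1.22-fold had an adjusted p under 0.05 and were less than 2-fold, and Olig2 missed both thresholds (adjusted p = 0.208). Of the 8 members only Neurog1 and Neurog2 lay outside the dimmest 33.3% of genes by mean level. The files used here give no detection call, so the EtOH levels of the other 6 may not stand above background, and their folds are ratios of deposited intensities, not exact ratios of RNA. At any size, 49.8% of all genes had an adjusted p under 0.05 at this time. In all 19938 genes, 0.497% stood at least as far above EtOH as Neurod1 at 72 h of ATRA, 0.818% as far as Nhlh1 and 3.82% as far as Neurog1. Under quantile normalization Neurod4 stood at 0.98 on the log2 scale, just under 2-fold.

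With BMS753 0 of 8 proneural genes were called at 2, 6, 24 and 48 h, where 0.0451%, 0.231%, 0.451% and 1.77% of all genes were called higher. At 72 h Neurog1 was the 1 member called, at 2.71-fold EtOH (adjusted p = 1.34e-07), where 3.01% of all genes were called higher and 2.81% lower. Nhlh1 at 1.91-fold, Nhlh2 at 1.48-fold, Neurod1 at 1.47-fold, Neurog2 at 1.20-fold and Neurod4 at 1.17-fold had an adjusted p under 0.05, as had 35.6% of all genes at any size. Atoh1 and Olig2 had not.

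ATRA and BMS753 share a dose of 1 µM and could be compared directly. Over the 3 late arrays of each, limma called 0 of the 8 proneural genes, where 10.4% of all genes were called and 4.44% called higher with ATRA. An unadjusted limma p under 0.05 was held by 4 of the 8, and by 5920 of all 19938 genes. Neurod1 was 1.32 ± 0.41 higher with ATRA (interval 0.46 to 2.19, adjusted p = 0.0506) and Nhlh1 0.87 ± 0.35 (interval 0.12 to 1.61, adjusted p = 0.116). Neurog1 differed by 0.21 (interval -0.30 to 0.71) and Olig2 by -0.00 (interval -0.15 to 0.14). Without the 24 h arrays Neurod1 at 2.02, Nhlh1 at 1.22 and Neurod4 at 0.51 were called (adjusted p = 0.000778, 0.0214 and 0.0371).

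Taken time by time, only Neurod1 and Nhlh1 were called between the agents, and only after 24 h. At 24 h 0 of 8 were called (0.562% of all genes called higher with ATRA), with differences of -0.07 to 0.24. At 48 h Neurod1 was called, 1.34 higher with ATRA (interval 1.13 to 1.55, adjusted p = 1.69e-07, 1.48% of all genes). Nhlh1 at 0.65 and Neurog1 at 0.53 had an adjusted p under 0.05 at that time and were less than 2-fold, and 22.6% of all genes had an adjusted p under 0.05 at any size.

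At 72 h 2 of 8 were called higher with ATRA, where 2.89% of all genes were called higher and 1.57% lower. Neurod1 was 2.70 higher on the log2 scale (interval 2.49 to 2.91, adjusted p = 1.41e-10), a 6.51-fold difference that 0.201% of all genes reached. Nhlh1 was 1.80 higher (interval 1.56 to 2.04, adjusted p = 2.84e-08). Neurod4 at 0.87, Atoh1 at 0.45 and Nhlh2 at 0.39 had an adjusted p under 0.05 and were less than 2-fold, as against 33.6% of all genes at any size. Neurog1 differed by -0.15 (interval -0.46 to 0.16, adjusted p = 0.474) and Neurog2 by 0.03 (interval -0.23 to 0.29). The change of the ATRA and BMS753 difference from 24 to 72 h, tested as such, had an adjusted p under 0.05 for 3 of 8 members, Neurod1, Nhlh1 and Neurod4, and for 22% of all genes.

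**Figure D2:**
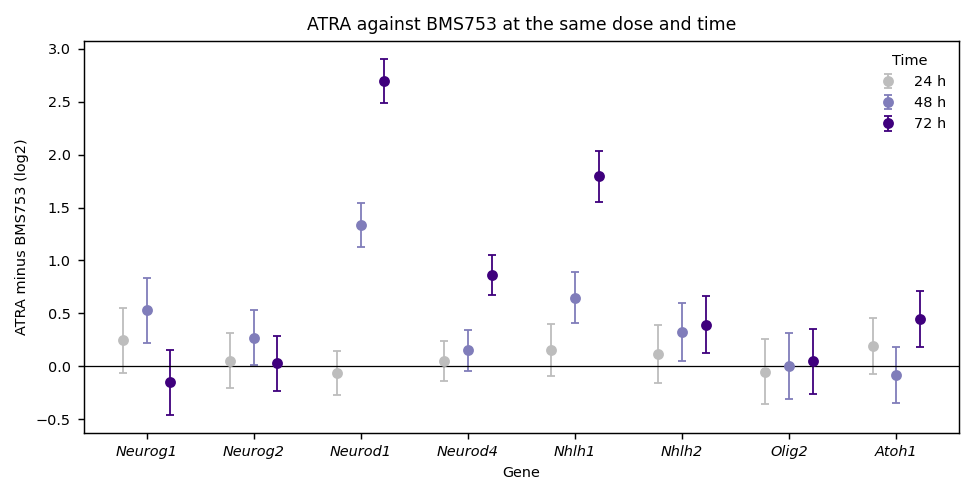
Log2 difference between ATRA and BMS753 at 1 µM (vertical axis) for each proneural bHLH gene (horizontal axis) at 24, 48 and 72 h, 1 array of each agent per time, with 95% intervals that take the spread from the EtOH arrays. At 72 h Neurod1 lay at 2.70 and Nhlh1 at 1.80, while the intervals of Neurog1, Neurog2 and Olig2 included 0.

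Over the 24 arrays the profiles of Neurod1 and Nhlh1 had a Pearson correlation of 0.966, Neurod4 and Nhlh1 of 0.960 and Neurod1 and Neurod4 of 0.942. Neurog1 was closest to Nhlh2 (0.873), and Olig2 had no correlation above 0.361 with another member. These describe arrays that share agents and times, and no p is given. Neurod1, Neurod4 and Nhlh1 all had their highest value on the ATRA array at 72 h, which weighs heavily in their correlations with any gene. For the members whose range reached 2 log2 units, the 3 most similar other genes were sought over the same 24 arrays. They were Ecm1 (0.988), Foxc2 (0.987) and Lypd6 (0.986) for Neurod1, and Tgfb2 (0.988), Tmem255a (0.985) and Bmp5 (0.982) for Nhlh1. At 72 h of ATRA Foxc2, a forkhead factor gene of mesenchyme, stood 5.34 above EtOH and at 72 h of BMS753 0.52. Tgfb2, a transforming growth factor gene, stood at 4.48 and 1.32 above EtOH on those 2 arrays.

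E-proteins, the partners that proneural proteins need to bind DNA, are encoded by Tcf3, Tcf4 and Tcf12. Late with ATRA all 3 were called higher, with Tcf3 at 0.44 ± 0.09, Tcf12 at 0.39 ± 0.13 and Tcf4 at 0.29 ± 0.09, a median of 0.39. Late with BMS753 Tcf12 at 0.43 and Tcf3 at 0.33 were called, and Tcf4 differed by 0.20. At 72 h each stood between 0.46 and 0.90 above EtOH with either agent, less than 2-fold. The ATRA call of Tcf3 held in 15 of 17 alternatives, that of Tcf4 in 9 and that of Tcf12 in 7. Of all genes, 17.9% were called higher late with ATRA and 6.52% with BMS753.

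Of 11 measured genes for inhibitors of proneural proteins (Id1 to Id4, 6 Hes and Hey genes and Rest, which represses neuronal genes outside neurons), 4 were called higher and 1 lower late with ATRA, with a median of 0.16, where 36.9% of all genes were called. Id2 rose by 2.02 ± 0.19, Id3 by 1.56 ± 0.44, Id1 by 1.00 ± 0.26 and Hey1 by 0.43 ± 0.12, and Rest fell by 0.30 on the log2 scale. Late with BMS753 2 were called higher, Id2 at 1.61 ± 0.19 and Hes3 at 0.30 ± 0.08, and Rest was lower (-0.26 ± 0.07). The median of the 11 was then 0.04, and 13.5% of all genes were called. Leaving out the arrays of either 48 or 72 h ended the late ATRA calls of Id1 and Id3, and leaving out those of 72 h ended that of Hey1.

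Id3 read 7.69, 7.47, 6.95, 10.05 and 9.90 with ATRA against an EtOH mean of 7.40, and 7.44, 7.38, 7.40, 8.27 and 9.50 with BMS753. Id2 read 10.68, 10.67, 12.03, 12.90 and 12.85 with ATRA against an EtOH mean of 10.58, and 10.46, 10.56, 11.21, 12.59 and 12.76 with BMS753. At 72 h Id1, Id2 and Id3 were called higher with both agents, and between the agents they were not called. Id4 was the 1 inhibitor gene called between them at 72 h, 1.39 higher with ATRA, where 2.89% of all genes were called higher. Over 2 and 6 h of ATRA Rest was called higher at 0.50 ± 0.07 and Hes1 lower at -0.47 ± 0.10, and the call of Hes1 held in 9 of 17 alternatives and that of Rest in 15. Hes5, a Notch target, lay between 7.63 and 8.21 on all ATRA arrays against an EtOH mean of 7.86 ± 0.07 (SD, n = 4).

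Among 12 other bHLH genes with a value, Atoh8 was called higher late with ATRA (1.29 ± 0.19) and BMS753 (0.74 ± 0.19). Ascl2, a gene of trophoblast and intestinal stem cells, was called lower with each (-1.65 ± 0.24 and -1.24 ± 0.24). The median of the 12 was 0.04 with ATRA and -0.02 with BMS753. The share of all genes called late was 36.9% with ATRA and 13.5% with BMS753. Tal2, a bHLH gene of the midbrain, was high at intermediate times. It read 5.53, 8.75, 8.94, 4.62 and 4.47 with ATRA, against 4.40 ± 0.04 with EtOH (SD, n = 4), and 4.63, 5.95, 7.89, 6.19 and 4.69 with BMS753. ATRA gave the higher Tal2 value at 24 h (difference 1.05) and BMS753 at 48 h (-1.56), both called. On the arrays where Neurod1 was high, ATRA at 48 and 72 h, Tal2 lay 0.22 and 0.07 above its EtOH mean.

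**Figure D3:**
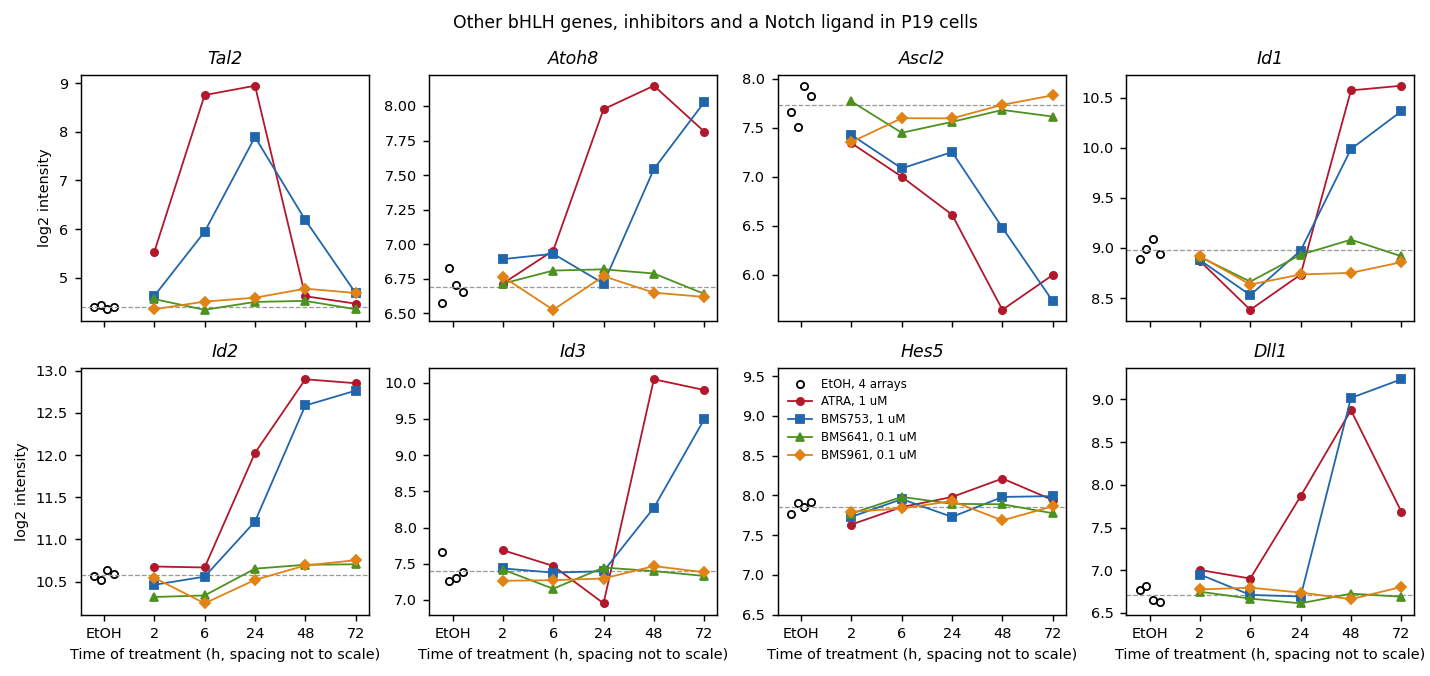
Log2 intensity (vertical axis, a scale of its own in each panel) of other bHLH genes, Id genes, the Notch target Hes5 and the Notch ligand Dll1 by time in hours (horizontal axis, spacing not to scale), with 1 point for each array and a dashed line at the EtOH mean. Tal2 peaked at 8.94 with ATRA and 7.89 with BMS753 at 24 h, and Id1, Id2 and Id3 were high at 72 h with both agents.

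Targets of proneural proteins and genes of young neurons formed a list of 26, all measured. Late with ATRA 10 were called higher and 2 lower, with a median of 0.27, where 36.9% of all genes were called and 17.9% called higher. Dcx, which encodes the microtubule protein doublecortin of migrating neurons, rose by 2.71 ± 0.50, the growth arrest gene Gadd45g by 1.47 ± 0.29, Dll1 by 1.43 ± 0.36 and Ebf3, a factor gene of young neurons, by 1.13 ± 0.29. Insm1, a zinc-finger factor of newborn neurons, rose by 0.85 ± 0.12. Rnd2, a small GTPase gene of migrating neurons and a known Neurog2 target, fell by 1.54 on the log2 scale, and Dll3 fell by 0.37. Btg2, Dll1, Dll3, Insm1 and Rnd2 were still called in that fit of the late ATRA arrays and the EtOH arrays alone, and the other 7 were not. Leaving out the 48 h arrays ended the ATRA calls of Dll1 and Dll3, and leaving out the 72 h arrays ended that of Srrm4. Late with BMS753 Dll1 was called higher (1.60 ± 0.36) and Rnd2 and Dll3 lower, where 13.5% of all genes were called, and the median was -0.02. Leaving out the arrays of either 48 or 72 h ended that call of Dll1.

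At 72 h 11 of the 26 target genes were called higher and 1 lower with ATRA, against 3 higher and 2 lower with BMS753, where 5.33% and 3.01% of all genes were called higher. Doublecortin RNA (Dcx) read 5.22, 5.24, 5.80, 7.96 and 10.13 with ATRA and 5.40, 5.15, 5.68, 5.57 and 6.59 with BMS753, against an EtOH mean of 5.25. Between the agents 7 were called higher with ATRA at 72 h and 1 lower, where 2.89% of all genes were called higher and 1.57% lower. The median difference was 0.65 over the list and 0.04 over all genes. The 7 were Dcx (3.53), the neurofilament genes Nefm (2.85) and Nefl (2.76), Elavl3 (1.86), Ebf3 (1.80), the tubulin gene Tubb3 (1.13) and the splicing factor gene Srrm4 (1.06). At 72 h of BMS753 Nefl (-1.30), Nefm (-0.71), Elavl3 (-0.59) and Tubb3 (-0.34) lay below EtOH. Dcx (1.34), Srrm4 (0.68) and Ebf3 (0.67) lay above it there. At 72 h of ATRA all 7 lay above EtOH, Tubb3 by 0.79, less than 2-fold. Elavl3 differed from EtOH by 1.22, 1.16, -0.76 and -0.83 at 2, 6, 24 and 48 h of ATRA. The 1 called lower with ATRA than with BMS753 was Dll1, at -1.55. It read 7.00, 6.90, 7.87, 8.87 and 7.69 with ATRA and 6.95, 6.71, 6.69, 9.02 and 9.23 with BMS753. Late, over the 3 arrays, Dcx, Nefm, Insm1 and Btg2 were called higher with ATRA than with BMS753 and 0 lower. Over all genes 10.4% were called in that comparison and 4.44% called higher. Btg2 kept its call without the arrays of any 1 time, while the other 3 lost theirs without the 2 h, the 6 h or the 48 h arrays.

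**Figure D4:**
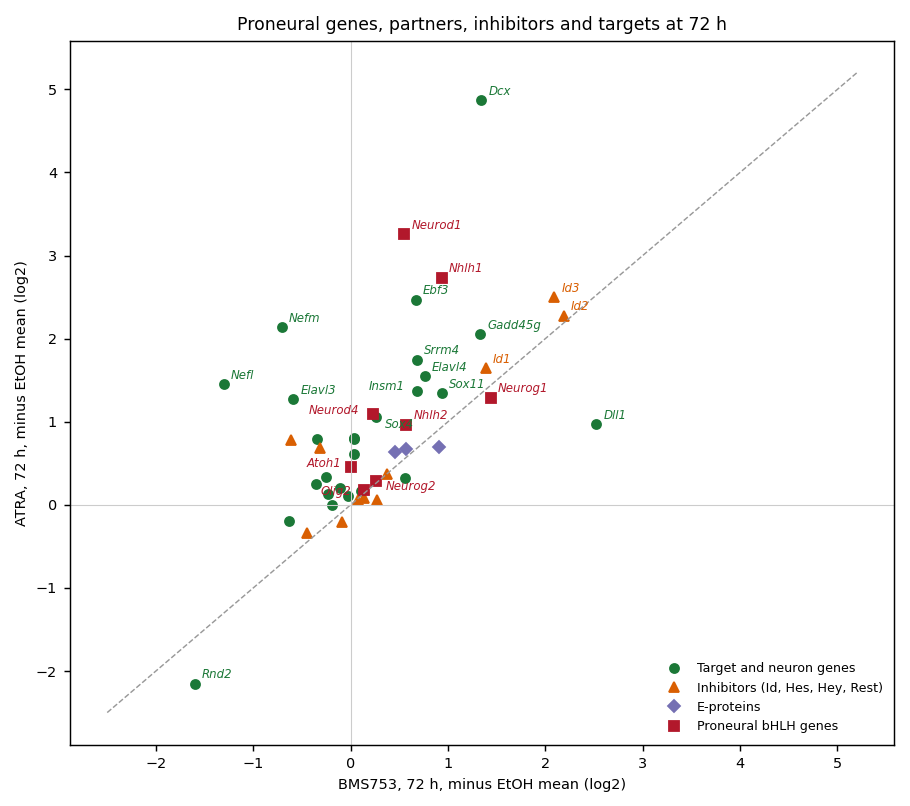
Log2 difference from the EtOH mean at 72 h with BMS753 (horizontal axis) and ATRA (vertical axis), 1 array of each, for proneural bHLH genes, E-proteins, inhibitors and target genes, with a dashed line of equal difference. Neurod1, Nhlh1 and Dcx lay above the line, Neurog1, Id2 and Id3 near it and Dll1 below it.

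Factors that divide the neural tube into progenitor domains, in which proneural genes are switched on, were measured for 18 genes. Late, 6 were called higher and 0 lower with each agent, where 36.9% of all genes were called with ATRA (17.9% higher) and 13.5% with BMS753 (6.52% higher). Pax6 rose by 4.01 ± 0.36 with ATRA and 2.25 ± 0.36 with BMS753, Irx3 by 2.08 ± 0.42 and 2.01 ± 0.42 and Pax3, a dorsal factor, by 1.84 ± 0.48 and 2.56 ± 0.48. Dbx1, a factor of the middle of the tube, was called with ATRA (2.02 ± 0.40) and not with BMS753, and Msx1, a dorsal factor, with BMS753 (1.90 ± 0.48) and not with ATRA. The call of Msx1 held in 12 of 17 alternatives, and the ATRA call of Pax3 was lost without the 48 h arrays. At 72 h Dbx1 was called higher with ATRA than with BMS753 (1.79), and Msx1 (-2.67), Pax3 (-2.45), Irx3 (-1.63) and Sox2 (-1.39) were called lower. Between these agents 2.89% of all genes were called higher at that time and 1.57% lower. Pax6 read 8.97, 11.38 and 9.70 at 24, 48 and 72 h of ATRA and 6.86, 9.11 and 8.82 with BMS753, above its EtOH mean of 6.01 at each. On the ATRA array at 24 h, where Pax6 already stood at 8.97, Neurod1 read 4.39.

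Markers of other cell types moved on the same arrays, and whether a gene was higher because more cells made it or because each cell made more cannot be told apart in bulk RNA. The mean log2 level of 7 neuron markers was 7.65 to 7.76 on the EtOH arrays, 9.46 on the ATRA array at 72 h and 7.53 on the BMS753 array at 72 h. That of 7 mesoderm and smooth muscle markers was 6.54 to 6.61 with EtOH, 8.81 with ATRA at 72 h and 7.98 with BMS753 at 72 h, and late 5 of 7 were called higher with ATRA and 1 with BMS753. The smooth muscle gene Tagln was 3.64 above EtOH at 72 h of ATRA. That of 8 endoderm markers was 6.53 to 6.60 with EtOH, 8.14 with ATRA at 72 h and 7.78 with BMS753 at 72 h, and 6 of 8 were called higher late with ATRA and 3 with BMS753, among them Gata6 with 3.02 ± 0.27 and 1.82 ± 0.27. Of all genes, 17.9% were called higher late with ATRA and 6.52% with BMS753. The part of these cell types in the proneural differences was not tested.

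Embryonal carcinoma markers fell as the proneural genes rose. Their mean log2 level over 8 genes was 9.64 to 9.73 with EtOH, 6.25 with ATRA at 72 h and 7.61 with BMS753 at 72 h, and late 6 of 8 were called lower with ATRA and 1 with BMS753. Nanog and Sall4 were called lower late with ATRA than with BMS753, at -2.05 and -1.18, where 10.4% of all genes were called. Glial markers had a mean over 9 genes of 6.09 to 6.16 with EtOH and 6.35 with ATRA at 72 h, and late Pdgfra at 1.34 and Slc1a2 at 0.53 were called higher and Aldh1l1 lower (-1.57). Markers of neuroendocrine cells and retina, tissues that also use Neurod1, had a mean over 8 genes of 5.94 to 6.04 with EtOH and 6.15 with ATRA at 72 h, and only Isl1 was called late with ATRA, at 0.39, a call kept in 4 of 16 alternatives. Of 5 skeletal muscle genes, where bHLH factors also act, 0 were called higher and Des was called lower late with ATRA (-1.24). Myog, the myogenin gene, lay between 5.77 and 6.05 on all 24 arrays. Of all genes, 36.9% were called late with ATRA, in either direction, and 13.5% with BMS753. The part of these marker changes in the proneural differences was not tested either.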

How the data were processed

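RNA from P19 cells was measured on 24 arrays. The values are log2 intensities as deposited by the authors, made with Affymetrix Expression Console 1.1 per the submitters' processing notes. How background was corrected and arrays were normalized was not stated in the labels, and no further normalization was applied. Of 35556 probe sets, 21789 had 1 gene symbol, and for each gene the one with the highest mean was kept, which gave 19938 genes. Array medians were 6.50 to 6.68, and the SD across genes of the difference between EtOH arrays was 0.0941 to 0.143. The number of arrays limits the precision.

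All genes were fitted in R 4.3.3 by limma 3.58.1, using lmFit and a trended eBayes, and p-values were adjusted by Benjamini-Hochberg. One model gave EtOH 1 mean and every agent separate means for its early (2 and 6 h) and late (24, 48 and 72 h) arrays, with time terms shared by the agents. The other had a mean for each agent and time. Both were tested on data simulated with the spread of the EtOH arrays. Such data cannot show whether treated arrays vary as the EtOH arrays do, or whether late times serve as repeats. Other normalization, filters, spread estimates, fits and left-out arrays were tried as alternatives. The 8 genes and the gene lists were chosen with earlier results of these data known. All 8 members were named, list genes were named with their list's counts, and for members with a range of at least 2 the 3 most correlated genes. Promoter windows came from RefSeq (GRCm38.p6), where all 8 genes matched. Of 129 list genes, 122 had a value.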

Additional observations from a re-analysis of the deposited data

Results flagged for a closer look

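The difference between ATRA and BMS753 itself changed from 24 to 72 h for 3 of the 8 proneural genes in a limma test of that change, with 1 array of each agent at each time. It grew by 2.77 for Neurod1 on the log2 scale (adjusted p = 6.56e-09), by 1.64 for Nhlh1 (adjusted p = 3.80e-06) and by 0.82 for Neurod4 (adjusted p = 0.000257). The same test had an adjusted p under 0.05 for 22% of all genes. The EtOH arrays held no value far enough from the others to be set apart for any of the 8 genes. For Neurog1 that change was -0.40, with an interval of -0.83 to 0.04 (adjusted p = 0.208).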

How the results depend on the processing

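Pairing by replicate was not possible because the labels give the groups no shared replicate numbers. The agents share their times, which enter the fit as time terms and the comparisons of agents at each time. Late with ATRA 6 of 8 proneural genes were called, against 2 without the dimmest 33.3% of genes (a filter that only Neurog1 and Neurog2 pass), 2 at 2-fold or more, 0 in a fit of only the groups compared, and 5 to 6 without each EtOH array. Late with BMS753 the count of 0 became 4 where only EtOH arrays gave the spread and 3 without the 24 h arrays. For ATRA against BMS753, late, it went from 0 to 4 and 3 under the same settings. At single times the 6 calls against EtOH became 2 without the dimmest genes and 18 with no size threshold, and the 3 calls between the agents became 0 and 8. Leaving out each EtOH array kept those counts at 6 and 3, and the late counts of 0 at 0. Of 2158 values of the members under an alternative, 2105 kept their side of the threshold, 34 gained a call and 19 lost one, and no called value changed sign. Most of these values were not called in the main fit and had no call to lose. The late ATRA call was kept in 9 of 16 alternatives for Neurod4, 13 of 17 for Neurog2 and 14 of 17 for Neurog1. It was kept in 14 of 16 for Nhlh2 and in 15 of 16 for Neurod1 and for Nhlh1. At single times only Neurod4 with ATRA at 72 h lost a call, under quantile normalization. Over all genes the late ATRA count of 7362 became 939 at 2-fold or more and 2269 in a fit of only the groups compared. The BMS753 count of 2683 became 412 and 299 under these, 6247 with the EtOH spread alone, 1694 without the arrays of either early time, and 5364, 1051 and 1510 without the 24, 48 and 72 h arrays. The count between the agents of 2067 became 143 and 0, 7024, 775, 774, 4735, 317 and 1022 in the same order. A fit of only the groups compared has fewer samples, and against EtOH it has no time terms. The cause of the changes under any setting was not tested.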
